A study of Drosophila melanogaster with 20 samples.

Results

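Hr3, Hr4, Hr38, Hr39 and Hr78 are nuclear receptor genes of Drosophila melanogaster. They were taken by their symbols from the deposited expression matrix, where all 5 were found among 17606 genes. All 5 also passed the filter on low values that left 10175 genes for testing, although Hr3 and Hr38 reached the level it asks for in some of the groups only.

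Nuclear receptors are transcription factors that bind DNA through zinc fingers and many of them change activity when a small lipophilic ligand binds. In insects the steroid 20-hydroxyecdysone binds EcR, which works as a dimer with usp and switches on a first tier of early regulators. The early-late receptors come next: they need the hormone receptor and, for their full level, early proteins, and they carry the response from the late larval pulse of hormone into the prepupa. In the salivary gland the late larval pulse follows glue synthesis and precedes the destruction of the tissue, while in the wing it starts the shaping of the adult appendage.

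The study followed RNA of wings and salivary glands through the onset of metamorphosis, in tissue with and without RNA interference against EcR. Times are hours relative to puparium formation. Animals were labelled female and raised at 25 C. Samples at −30 h came from larvae timed from hatching, samples at −6 h from wandering larvae and samples at +6 h from animals staged as white prepupae. The EcRi animals were yw/yw and carried Vg-GAL4 with UAS-Flp and the Tub>>CD2>>GAL4 cassette, plus UAS-GFP and the hairpin transgene UAS-EcR-RNAi[104]. In such animals GAL4 made under vestigial control turns on the Flp recombinase, which removes the CD2 block, so that a tubulin promoter drives GAL4 from then on. The labels do not give the share of gland cells in which this happened. The WT animals were +/+ at all 3 chromosome pairs, so they carried no driver and no transgene, and a difference between EcRi and WT includes any difference between the lines. EcRi tissue was sampled at −30 and −6 h and WT tissue at −30, −6 and +6 h, for wing and for gland, which makes 10 groups of 2 libraries. Each library pooled at least 60 wings or glands. No label says whether the paired libraries of a group stem from separate cultures, so a p-value measures the spread between these libraries only.

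The 20 libraries held 14920520 to 22610848 reads over genes. EcR, the gene aimed at, had 127 and 125 scaled RPM in EcRi wings at −6 h, against 196 and 162 in WT wings. It had 215 and 186 in EcRi wings at −30 h, against 349 and 315 in WT wings. In EcRi glands at −6 h EcR had 248 and 192, against 1321 and 1270 in WT glands. In the glands labelled EcRi at −30 h it had 302 and 281, against 279 and 302 in WT glands, and these libraries overlapped. EcR fell by 2.57 ± 0.14 (log2, SE) in EcRi glands at −6 h (limma, adjusted p = 1.12e-08), and its difference from WT was not called in the other 3 comparisons, that in wings at −30 h being −0.73 ± 0.14 with an adjusted p of 0.0125. Most of the fall at −6 h came with the scaling described below. In unscaled RPM, EcR had 225 and 213 in EcRi glands at −6 h, against 332 and 251 in WT glands. No unscaled test of EcR is given here. The matrix does not separate EcR messenger RNA from hairpin RNA, and at −30 h the level of EcR gave no support to the label of the EcRi glands. Wing markers (vg, nub, ap, rn and Dll) summed to 853 to 1177 scaled RPM in wings, against 0.632 to 42.5 in glands. Glue genes took 65.1% and 72.6% of reads in WT glands at −6 h, against 1.84% to 6.81% in the other larval glands. In WT glands at −30 h replicate 2 stood apart, with reads in 6355 genes from a depth of 17045051. The other libraries had reads in 9413 to 11476 genes. All 5 blood cell markers and 4 of 5 neuron markers had 0 reads in replicate 2. The remaining neuron marker, elav, alone gave a sum of 25.4 scaled RPM, the highest neuron sum among glands. The median difference between replicates of this group was 0.651 (log2), against 0.130 to 0.287 in the other groups. The part of the low number of genes in the low values of replicate 2 was not tested.

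The unit of level is scaled RPM: RPM, the reads of a gene relative to the depth of its library, after TMM scaling by a factor per library that puts the bulk of genes on the same level. Differences are of log2(scaled RPM + 1), fitted with limma over all 20 libraries, and each is printed as log2 with its standard error. This scale understates changes of low genes. Genes were called where p, adjusted by Benjamini-Hochberg, stayed under 0.05 and the log2 difference reached 1 in either direction. The scaling factors were 0.252 and 0.197 in WT glands at −6 h and 0.384 and 0.409 in WT glands at +6 h, against 0.621 to 1.19 in the other glands and 1.23 to 2.01 in wings. For the receptor genes named at the start, changes that involve WT glands at −6 h are therefore also given without scaling. Changes of EcR and of other receptors, regulators, partners and targets, with their counts and medians, are given with scaling only. Their dependence on the scaling was not tested. Dropping the scaling moved the median of all genes to −1.16 (log2) for −6 h over −30 h in WT glands, 0.24 for +6 h over −6 h, 1.59 for EcRi over WT glands at −6 h and 2.15 for WT wings over WT glands at −6 h, and an unscaled value is read against that shift. Unscaled values of the other comparisons carry a shift too, set by the factors of the groups compared.

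The genes lie on 4 chromosome arms, in dm6 coordinates. Hr4 (FBgn0264562) spans chromosome X from 1941940 to 2007956 on the plus strand, with 9 annotated transcripts and 13899 exon bases. Hr38 (FBgn0014859) spans 2L from 20683462 to 20714588 on the minus strand, and Hr39 (FBgn0261239) spans 2L from 21237250 to 21259675 on the plus strand. Their exons cover 7704 and 4984 bases. Hr78 (FBgn0015239) is the shortest gene, at 3L from 21494019 to 21497494 on the minus strand with 2420 exon bases. The antisense RNA gene asRNA:CR43933 overlaps 443 of those bases from the other strand.

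Hr3 (FBgn0000448) spans 2R from 10203995 to 10237348 on the minus strand and was measured from a small part of its exons. Of its 10465 exon bases, 8655 (82.7%) are shared with CG12912 and CG46321, genes annotated inside it on the same strand, and both of those had 0 reads in all libraries. The same held across the genome: all 282 protein-coding genes with every exon base shared on the same strand had 0 reads. Of 62 genes with every exon base shared with the opposite strand only, 8 had 0 reads. Reads on bases shared within a strand were thus left uncounted, and the Hr3 values come from 1810 bases, a block of 1459 bases at the 3′ end of the gene and a block of 351 bases at its 5′ end. Low Hr3 values in these libraries are low counts on that remainder and give no level of the whole transcript.

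**Figure D1:**
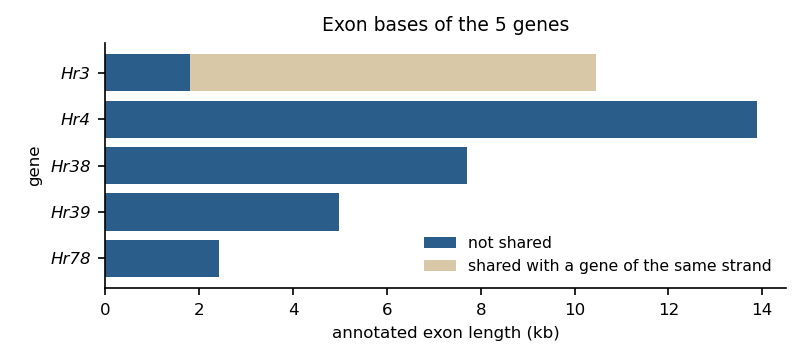
Annotated exon length of the 5 genes in kilobases, split into bases shared with another gene of the same strand (light) and bases not shared (dark). Hr3 keeps 1810 of 10465 bases, and the other 4 genes share none on their own strand.

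Compared per length, as scaled RPM per kilobase of countable exon, the highest group mean belonged to Hr78, at 121 ± 32.2 (SD, n = 2) in WT glands at −6 h. Hr4 reached 79.0 ± 3.85 in WT wings at +6 h and Hr39 reached 67.6 ± 3.34 in WT glands at −6 h. The values of WT glands at −6 h rest on the low scaling factors of that group, and no unscaled order was computed. In unscaled RPM, Hr78 had a mean of 67.5 there and of 83.8 in WT wings at −6 h. Hr3 and Hr38 were far lower, with highest means of 8.96 ± 2.33 in WT wings at +6 h and 2.72 ± 0.473 in WT glands at +6 h. Over all libraries Hr4 gathered 127034 reads, Hr39 40239, Hr78 21651, Hr3 1800 and Hr38 641, so the last pair carries the largest counting error.

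**Figure D2:**
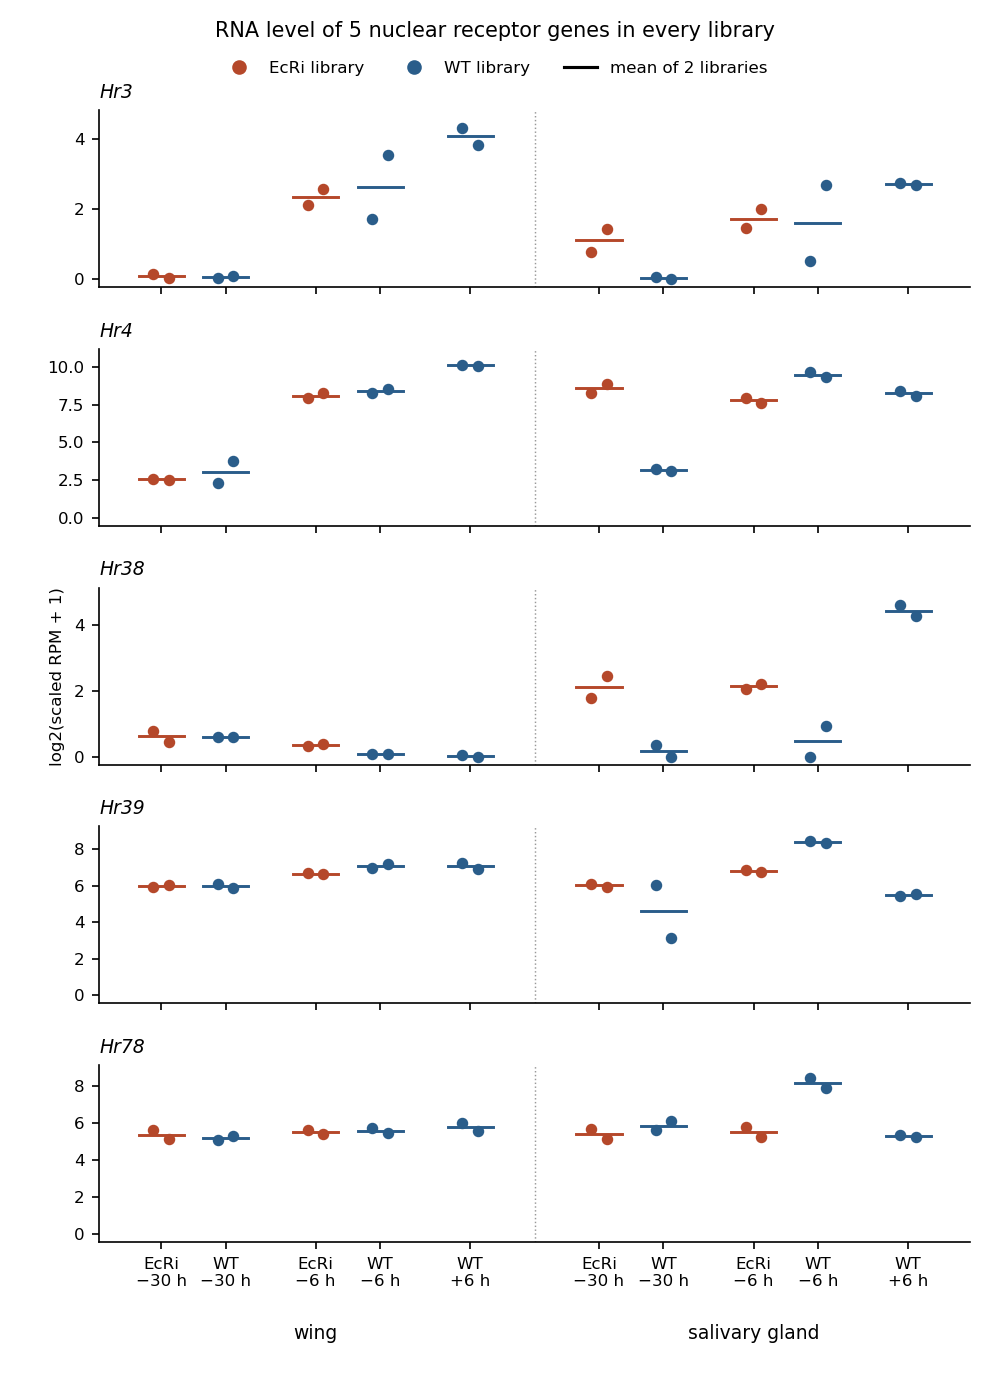
Level of each gene in every library as log2(scaled RPM + 1), wings at the left and salivary glands at the right, by time, with EcRi (red) beside WT (blue). Points are single libraries and lines are means of 2; the range of the vertical axis differs between genes.

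Hr4 encodes a receptor known as a repressor of early hormone-induced genes in the prepupa. EcRi wings had 240 and 301 scaled RPM at −6 h and 5.06 and 4.64 at −30 h. WT wings had 3.96 and 12.4 at −30 h, 301 and 372 at −6 h, and 1136 and 1060 at +6 h. Hr4 was thus low in both wing genotypes at −30 h, and WT wings at +6 h were the highest of all groups. EcRi glands had 250 and 190 at −6 h, and the glands labelled EcRi at −30 h had 312 and 460. WT glands had 8.41 and 7.58 at −30 h, 822 and 627 at −6 h, and 340 and 268 at +6 h. At −30 h, WT glands and the wings of both genotypes lay between 3.96 and 12.4, and the EcRi-labelled glands lay above every one of them. In the order of group means, the 5 groups between 219.9 ± 42.4 and 386 ± 105 (SD, n = 2) each overlapped the next, as did WT wings and WT glands at −30 h. The 12.4 in WT wings at −30 h was in replicate 2, where fat body markers summed to 2592 scaled RPM, against 199.97 in replicate 1; their part in the value was not tested.

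Hr3 encodes the receptor that activates ftz-f1 and represses early genes. EcRi wings had 3.37 and 4.95 scaled RPM at −6 h (91 and 174 reads), and 0.101 and 0.0341 at −30 h (3 reads and 1 read). WT wings had 0.0305 and 0.0667 at −30 h, 2.32 and 10.8 at −6 h, and 19.2 and 13.2 at +6 h, the last from 529 and 337 reads. The WT wings at −6 h were the least even pair among wings, with 72 and 360 reads. EcRi glands had 1.76 and 3.01 at −6 h, and the glands labelled EcRi at −30 h had 0.729 and 1.72. WT glands had 0.0475 and 0 at −30 h, 0.440 and 5.53 at −6 h, and 5.76 and 5.53 at +6 h. The WT glands held 1 read and 0 reads at −30 h, 2 and 24 reads at −6 h, and 50 and 41 reads at +6 h, so the replicates at −6 h parted on very few counts. A library with 0 reads allows up to 3, which is 0.158 scaled RPM in that WT gland library. The limit covers counting error only, and that library had reads in no more than 6355 genes.

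Hr39 encodes a receptor related to ftz-f1 that binds similar DNA sites. EcRi wings had 102 and 98.0 scaled RPM at −6 h and 60.2 and 63.7 at −30 h. WT wings had 66.8 and 58.3 at −30 h, 124 and 146 at −6 h, and 148 and 118 at +6 h. In both genotypes the wings at −30 h lay below every wing library of the later times. EcRi glands had 114 and 107 at −6 h, and the glands labelled EcRi at −30 h had 66.6 and 60.8. WT glands had 63.9 and 7.95 at −30 h, 349 and 325 at −6 h, and 41.6 and 46.4 at +6 h. The 7.95 is from replicate 2, the library that stood apart, with 151 reads against 1344 in replicate 1. WT glands at −6 h were the highest group on this scale.

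Hr78, a receptor needed for larval growth and metamorphosis, varied least outside 1 group. EcRi wings had 47.7 and 41.6 scaled RPM at −6 h and 47.9 and 34.1 at −30 h, and the WT wings of all 3 times lay between 33.2 and 63.8. EcRi glands had 54.6 and 37.3 at −6 h, and the glands labelled EcRi at −30 h had 50.9 and 34.6. WT glands had 48.1 and 67.8 at −30 h, 349 and 239 at −6 h, and 39.7 and 37.8 at +6 h. On this scale the WT glands at −6 h stood apart from the other 9 groups, whose means ran from 35.6 ± 3.33 to 57.9 ± 14.0 (SD, n = 2) and overlapped from each one to the next. In unscaled RPM they did not, with 87.8 and 47.1 against 93.3 and 74.4 in WT wings at −6 h.

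Hr38, a receptor that can pair with usp in place of EcR, was close to the counting floor in wings. EcRi wings held 7 and 11 reads at −6 h and 21 and 11 at −30 h. WT wings held 17 and 15 reads at −30 h, 2 and 2 at −6 h, and 1 and 0 at +6 h. EcRi glands had 3.17 and 3.62 scaled RPM at −6 h (56 and 60 reads), and the glands labelled EcRi at −30 h had 2.48 and 4.43 (34 and 54 reads). WT glands had 0.285 and 0 at −30 h, 0 and 0.921 at −6 h, and 23.5 and 18.3 at +6 h. The WT glands at +6 h, with 204 and 136 reads, were above every other library, and all 4 EcRi gland libraries were above the 4 larval WT gland libraries.

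The comparison of WT glands over time asks which receptors follow the late larval pulse in a tissue about to be destroyed. At −6 h over −30 h, 3 of the 5 genes were higher and none lower, where 34.8% of all genes were called. Hr4 rose by 6.32 ± 0.35 (adjusted p = 7.16e-09), Hr39 by 3.81 ± 0.57 (adjusted p = 7.92e-05) and Hr78 by 2.32 ± 0.27 (adjusted p = 8.99e-06). Hr3 differed by 1.58 ± 0.62 (adjusted p = 0.0509) and Hr38 by 0.29 ± 0.29 (adjusted p = 0.471). For Hr3 this was 26 reads against 1, a scaled ratio of 117 with a counting interval of 19.2 to 4800. Hr3 was called under 6 of the 12 other settings that tested it, among them limma voom at 5.35 (adjusted p = 0.00602). Only the change of Hr4 passed without scaling, at 3.98 (log2, adjusted p = 2.91e-07). Unscaled RPM of Hr78 were 87.8 and 47.1 at −6 h against 57.3 and 75.6 at −30 h, which overlap, and those of Hr39 were 87.7 and 64.2 against 76.1 and 8.86. Without replicate 1 at −30 h the change of Hr39 was 5.39, and without replicate 2 it was 2.38. Of the other nuclear receptors, 4 of 12 tested were higher and none lower, with Eip78C up by 8.84 ± 0.44 and, among other regulators, E23 up by 6.49 ± 0.55. The median of the 5 genes was 2.32, against 0.06 over all genes tested. Of 7 other regulators of the cascade 5 were higher, and of 5 partners and targets of the 5 receptors 2 were higher. The last list shares usp, Eip75B, ftz-f1 and Blimp-1 with the others, and moses, a corepressor that binds Hr78, was not analysed here.

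At +6 h over −6 h in WT glands, 1 gene rose and 3 fell, where 30% of all genes were called. Hr38 rose by 3.97 ± 0.29 (adjusted p = 9.84e-08), while Hr39 fell by 2.91 ± 0.57 (adjusted p = 0.000834) and Hr78 fell by 2.87 ± 0.27 (adjusted p = 1.19e-06). In reads, the scaled ratio for Hr38 was 47.0, with a counting interval of 18.2 to 173 (95%), from 340 reads against 4. Hr4 fell by 1.25 ± 0.35 (adjusted p = 0.00986), and Hr3 differed by 1.12 ± 0.62 (adjusted p = 0.176). The calls of Hr38, Hr39 and Hr78 held without scaling, at 3.09, −2.05 and −2.00 (log2), and that of Hr4 did not, at −0.42 (adjusted p = 0.488). It was also lost with median-of-ratios scaling, at −0.98, with array weights, and without WT gland replicate 1 at −6 h (−0.79) or either WT gland replicate at +6 h (−1.21 and −0.81). ftz-f1, which Hr3 activates, rose by 3.87 ± 0.37 over the same interval, and Eip78C fell by 3.52 ± 0.44. In all, 2 of 12 other nuclear receptors rose and 3 fell, 1 of 7 other regulators rose and 3 fell, and 1 of 5 partners and targets rose and 1 fell.

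Over the whole span, at +6 h over −30 h in WT glands, Hr3, Hr4 and Hr38 were higher and none was lower, where 45.6% of all genes were called. The changes were 5.07 ± 0.35 for Hr4 (adjusted p = 2.18e-08), 4.26 ± 0.29 for Hr38 (adjusted p = 2.28e-08) and 2.70 ± 0.62 for Hr3 (adjusted p = 0.00179). The Hr3 change rests on 91 reads against 1, a scaled ratio of 226 with a counting interval of 39.6 to 9039, and its call was lost with array weights and on the unscaled RPKM. Hr39 and Hr78 were at 0.90 ± 0.57 and −0.55 ± 0.27 (adjusted p = 0.2 and 0.105). On unscaled RPM Hr78 was called lower, at −2.03 (adjusted p = 7.14e-05). That value carries the shift between scaling factors of 0.384 and 0.409 at +6 h and 1.19 and 1.11 at −30 h.

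In WT wings the question is the same, for a tissue that is kept and remodelled. At −6 h over −30 h, 2 of the 5 genes rose and none fell, where 5.3% of all genes were called. Hr4 rose by 5.36 ± 0.35 (adjusted p = 5.47e-07) and Hr3 by 2.58 ± 0.62 (adjusted p = 0.0187), while Hr39 differed by 1.09 ± 0.57 (adjusted p = 0.394), Hr78 by 0.40 ± 0.27 (adjusted p = 0.589) and Hr38 by −0.51 ± 0.29 (adjusted p = 0.477). For Hr38 this was 4 reads against 32, a scaled ratio of 0.122 with a counting interval of 0.0313 to 0.343. The spread of Hr39 rests on the WT glands at −30 h: without replicate 1 or 2 of that group its wing change was 1.06 or 1.09 and called. The Hr3 call was lost without WT wing replicate 2 at −6 h, at 1.64 (adjusted p = 0.318), and without either WT wing replicate at −30 h, at 2.51 and 2.56. With only the compared groups in the fit the change of Hr4 was 5.45 (adjusted p = 0.0535). Blimp-1, a repressor of ftz-f1, rose by 7.31 ± 0.37, and ftz-f1 fell by 2.92 ± 0.37. Glue markers summed to 12524 and 8937 scaled RPM in WT wings at −6 h, against 60.2 to 807 in the other wings, and their part in these results was not tested. Of 12 other nuclear receptors 2 rose and 1 fell, of 7 other regulators 3 rose, and of 5 partners and targets 3 rose and 1 fell.

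At +6 h over −6 h in WT wings, Hr4 alone among the 5 was called, where 16.7% of all genes were called. It rose by 1.71 ± 0.35 (adjusted p = 0.00208). Hr3 differed by 1.44 ± 0.62 (adjusted p = 0.117) and Hr38, Hr39 and Hr78 by −0.06, −0.02 and 0.21, with 95% intervals of −0.69 to 0.57, −1.25 to 1.20 and −0.38 to 0.80. At +6 h over −30 h, Hr4 rose by 7.07 ± 0.35 (adjusted p = 2.84e-09) and Hr3 by 4.02 ± 0.62 (adjusted p = 0.000139), 2 of 5 where 24.6% of all genes were called. For Hr3 this was 866 reads against 3, a scaled ratio of 342 with a counting interval of 117 to 1662. Hr38 differed by −0.57 ± 0.29 over that span (adjusted p = 0.16), on 1 read against 32. Its scaled ratio was 0.0370 with a counting interval of 0.00091 to 0.222, and limma voom called it lower, at −4.01 (adjusted p = 0.0122). In the last interval ftz-f1 rose by 4.92 ± 0.37, E23 by 4.04 ± 0.55 and Eip93F by 2.28 ± 0.46, and Blimp-1 fell by 2.76 ± 0.37.

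**Figure D3:**
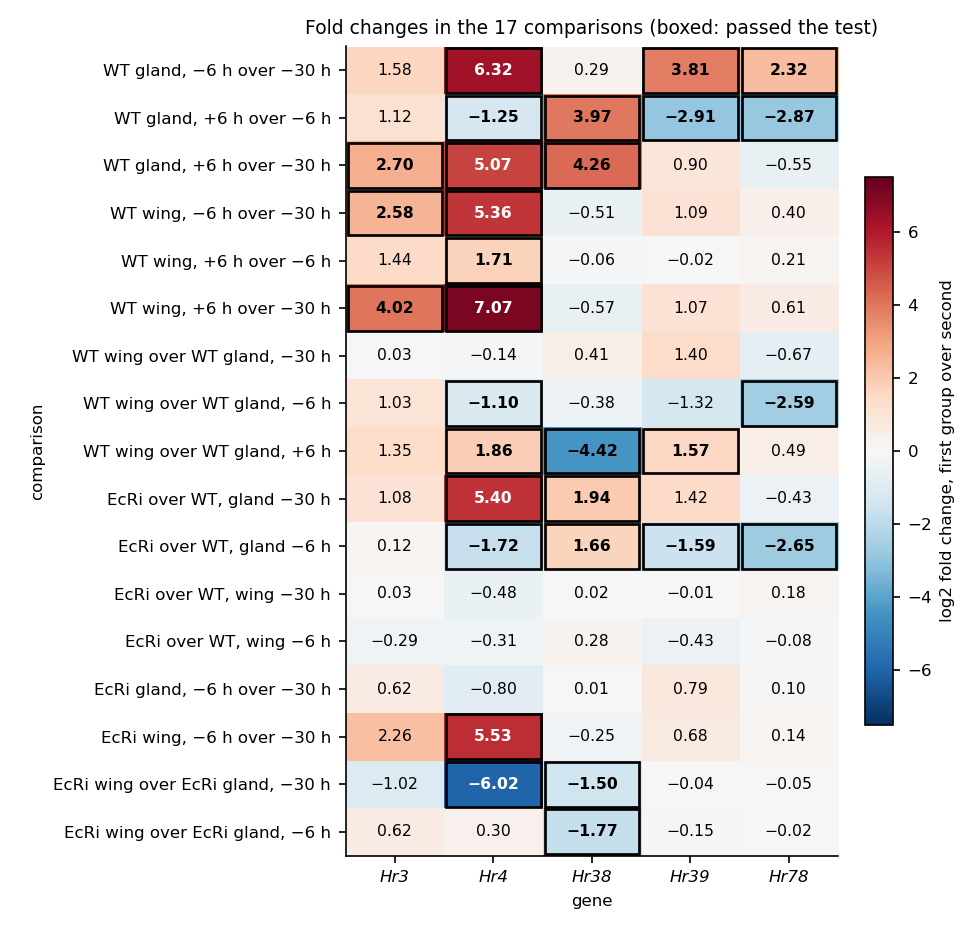
Log2 fold change of each gene in the 17 comparisons between groups, the first-named group over the second, with called changes in bold and boxed. Hr4 passed in 12 of them, Hr38 in 7, Hr39 and Hr78 in 4 each and Hr3 in 3.

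Wings and glands of WT animals were then set side by side at each time. At −30 h none of the 5 genes was called, where 30.9% of all genes were called, and their differences ran from −0.67 for Hr78 to 1.40 for Hr39 (limma, adjusted p = 0.0625 and 0.0628). Hr39 and Hr78 had an unadjusted p under 0.05 there, and limma voom called 1 of the 5. The value of Hr39 was 2.96 without WT gland replicate 1 at −30 h and −0.03 without replicate 2, and without scaling it was 2.16 and called. At −6 h, 2 genes were lower in wings and none higher, where 44.5% of all genes were called: Hr78 by −2.59 ± 0.27 (adjusted p = 1.82e-06) and Hr4 by −1.10 ± 0.35 (adjusted p = 0.0148). The call of Hr4 was lost without replicate 1 of WT glands or of WT wings at −6 h (−0.94 and −0.95). Hr39 stood at −1.32 ± 0.57 (adjusted p = 0.0621), Hr3 at 1.03 ± 0.62 (adjusted p = 0.175) and Hr38 at −0.38 ± 0.29 (adjusted p = 0.289). Without scaling 3 genes were called higher in wings and none lower: Hr3 at 2.73 (adjusted p = 0.000167), Hr4 at 1.88 (adjusted p = 0.00034) and Hr39 at 1.65 (adjusted p = 0.0221). Hr78 was then at 0.37 and Hr38 at 0.03, neither called, so the direction of Hr4, Hr38, Hr39 and Hr78 turned with the scaling. Unscaled RPM of Hr4 were 539 and 647 in WT wings at −6 h against 207 and 124 in WT glands, and those of Hr78 were 93.3 and 74.4 against 87.8 and 47.1, which overlap.

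At +6 h, 2 genes were higher in WT wings and 1 lower, where 47.4% of all genes were called. Hr38 was lower by −4.42 ± 0.29 (adjusted p = 1.78e-08), on 1 read in wings against 340 in glands. The scaled ratio was 0.000893, with a counting interval of 2.26e-05 to 0.00501. Hr4 was higher by 1.86 ± 0.35 (adjusted p = 0.000351) and Hr39 by 1.57 ± 0.57 (adjusted p = 0.0285). The call of Hr39 was lost with median-of-ratios scaling, at 1.16 (adjusted p = 0.0948), and without any 1 of the 4 libraries compared, at 1.20 to 1.73. Hr3 differed by 1.35 ± 0.62 (adjusted p = 0.0747) and Hr78 by 0.49 ± 0.27 (adjusted p = 0.143). Without scaling both were called higher in wings, at 2.68 and 2.07. The scaling factors were 1.24 and 1.23 in these wings against 0.384 and 0.409 in the glands, a shift that the unscaled values carry.

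The difference between tissues in the change over time was tested directly. For the WT change of −30 to −6 h, wing minus gland, 2 genes were called lower, where 28.6% of all genes were called: Hr39 at −2.71 ± 0.80 (adjusted p = 0.0186) and Hr78 at −1.92 ± 0.39 (adjusted p = 0.0017). For the WT change of −6 to +6 h, wing minus gland, 3 were higher and 1 lower, where 27% of all genes were called. Hr4 was at 2.96 ± 0.49 (adjusted p = 0.000344), Hr39 at 2.89 ± 0.80 (adjusted p = 0.0132), Hr78 at 3.07 ± 0.39 (adjusted p = 3e-05) and Hr38 at −4.03 ± 0.42 (adjusted p = 5e-06). Hr3 was at 0.99 ± 0.87 and 0.33 ± 0.87 in these tests (adjusted p = 0.426 and 0.829). Without scaling the first test called 2 other genes, both higher, Hr3 at 2.63 (adjusted p = 0.00537) and Hr4 at 1.33 (adjusted p = 0.0468), against −0.96 ± 0.49 for Hr4 with scaling, and it called neither Hr78, at 0.28, nor Hr39, at −0.52. The second test without scaling gave 1.51 for Hr39, not called, and kept its other 3 calls. The value of Hr39 in the first test was −4.33 without WT gland replicate 1 at −30 h and −1.28 without replicate 2. Its calls were also lost with only the compared groups in the first test, without replicate 1 of WT wings at −30 h or −6 h in that test (−2.61 and −2.60) and without any 1 of the 4 WT gland libraries in the second (2.55 to 2.70).

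EcRi and WT tissue were compared to ask which of the receptor genes depend on EcR. In glands at −30 h, where EcR RNA did not differ, Hr4 and Hr38 were higher in the libraries labelled EcRi and none was lower, 2 of 5 where 13.6% of all genes were called. Hr4 was higher by 5.40 ± 0.35 (adjusted p = 2.81e-07), with no overlap between libraries, and remained called under all 13 alternative settings and without each of the 20 libraries, at 4.09 to 5.56 and 5.10 to 5.66. Of these settings, that without the fold minimum cannot lose a call, and most of the 20 libraries lie outside the groups compared. Hr38 was higher by 1.94 ± 0.29 (adjusted p = 0.000526), on 34 and 54 reads against 6 and 0. Hr39 differed by 1.42 ± 0.57 (adjusted p = 0.0881), Hr3 by 1.08 ± 0.62 (adjusted p = 0.211) and Hr78 by −0.43 ± 0.27 (adjusted p = 0.257). Hr78 was called lower without scaling, at −1.14, with factors of 0.778 and 0.621 in EcRi-labelled glands against 1.19 and 1.11 in WT glands. Hr3 had 31 reads against 1, with no overlap between libraries. Its scaled ratio was 47.9 with a counting interval of 7.99 to 1953, and limma voom called it higher, at 4.75 (adjusted p = 0.0243). The value of Hr39 was 2.87 and called without WT gland replicate 1, and −0.01 without replicate 2. The call of Hr38 was lost with a pseudocount of 4 (0.84), with array weights (adjusted p = 0.236) and with only the compared groups in the fit (adjusted p = 0.291). Fat body markers summed to 15747 and 23010 scaled RPM in these EcRi-labelled glands against 7598 and 4028 in WT glands, and their part in the result was not tested. In a bulk sample, more cells of a type and more RNA per cell cannot be told apart.

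Other genes of the pathway in the glands at −30 h moved both ways. Eip78C was higher in EcRi-labelled libraries by 2.69 ± 0.44, svp by 1.68 ± 0.53 and ftz-f1 by 1.60 ± 0.37, 3 of 12 other nuclear receptors with none lower. br, an early regulator of the larval to pupal switch, was lower by −2.32 ± 0.49 and Eip74EF by −1.36 ± 0.39, 2 of 7 other regulators with none higher. Of 5 partners and targets 1 was higher. The medians of these lists were 0.09, 0.17 and 0.17, that of the 5 genes 1.42 and that of all genes tested 0.16.

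In glands at −6 h, where EcR RNA was lower in EcRi libraries, 1 of the 5 genes was higher and 3 were lower, where 27% of all genes were called. Hr78 was lower by −2.65 ± 0.27 (adjusted p = 3.68e-06), Hr4 by −1.72 ± 0.35 (adjusted p = 0.00129) and Hr39 by −1.59 ± 0.57 (adjusted p = 0.0403). Hr38 was higher by 1.66 ± 0.29 (adjusted p = 0.000442), a scaled ratio of 7.53 with a counting interval of 2.86 to 28.1 from 116 reads against 4. Hr3 differed by 0.12 ± 0.62 (adjusted p = 0.92), with a 95% interval of −1.21 to 1.45. Without scaling none of the 3 decreases was called, at −0.50 for Hr78, 0.45 for Hr4 and 0.56 for Hr39, and Hr38 remained higher. In unscaled RPM, Hr4 had 227 and 211 in EcRi glands against 207 and 124 in WT glands, Hr39 had 104 and 119 against 87.7 and 64.2, and Hr78 had 49.6 and 41.4 against 87.8 and 47.1. The glue genes took 5.07% and 3.74% of reads in the EcRi glands and 65.1% and 72.6% in the WT glands. The call of Hr39 held without 6 of the 20 libraries in turn and was lost without each of the other 14.

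**Figure D4:**
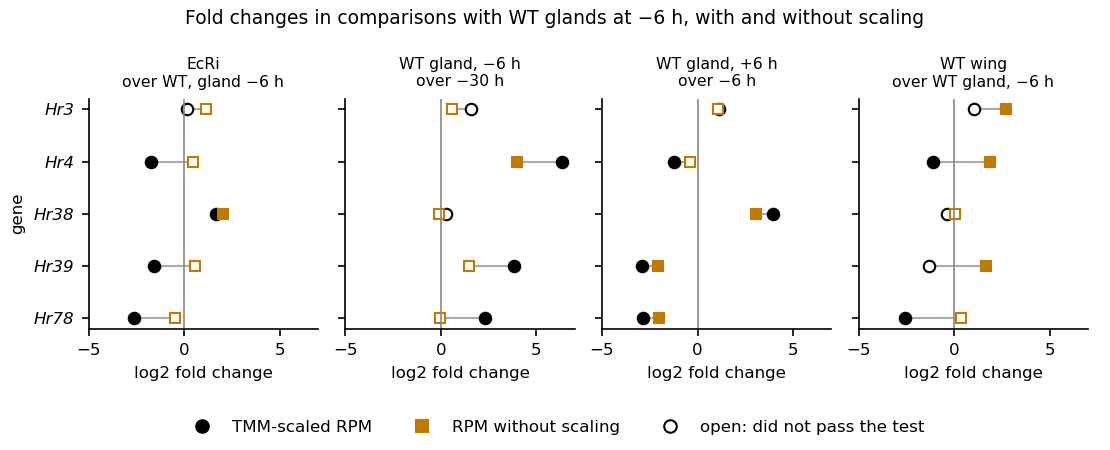
Log2 fold changes in the 4 comparisons that involve WT glands at −6 h, from TMM-scaled RPM (black circles) and from RPM without scaling (orange squares), filled where the change was called. The markers lie on opposite sides of 0 for Hr4 and Hr39 in EcRi over WT glands, for Hr4, Hr38, Hr39 and Hr78 in WT wings over WT glands, and for Hr38 and Hr78 in WT glands at −6 h over −30 h.

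Among the other nuclear receptors in glands at −6 h, 1 of 12 was higher in EcRi libraries and 4 were lower, with Eip78C at −5.70 ± 0.44 and Eip75B at −3.50 ± 0.19. ftz-f1, which Hr39 resembles and Hr3 activates, was the higher one, at 2.23 ± 0.37. Of 7 other regulators 5 were lower, with Eip74EF at −5.08 ± 0.39 and E23, a membrane transporter gene of the cascade, at −3.08 ± 0.55. Of 5 partners and targets 1 was higher and 1 lower. The lists had medians of −0.34, −1.91 and 0.03, the 5 genes −1.59 and all genes tested 0.16.

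**Figure D5:**
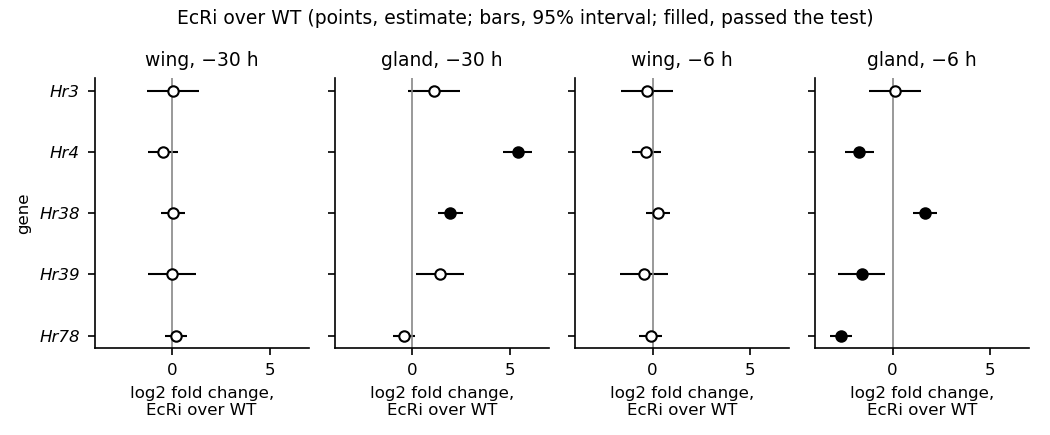
Log2 fold change of EcRi over WT for each gene by tissue and time, with 95% intervals from the fit and filled points where the change was called. In wings all 10 intervals include 0; in glands Hr4 lies at 5.40 at −30 h and at −1.72 at −6 h.

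In wings none of the 5 genes was called by limma at −30 h or at −6 h, where 2.2% and 1.78% of all genes were called. The count was 0 at both times with limma voom too, and 0 at an unadjusted p under 0.05. At −6 h the differences were −0.31 for Hr4 (95% interval −1.06 to 0.43), −0.29 for Hr3 (−1.62 to 1.04), −0.43 for Hr39 (−1.65 to 0.80), −0.08 for Hr78 (−0.67 to 0.51) and 0.28 for Hr38 (−0.36 to 0.91). At −30 h they lay between −0.48 for Hr4 and 0.18 for Hr78. EcRi wings at −30 h had 5.06 and 4.64 scaled RPM of Hr4 against 3.96 and 12.4 in WT wings, and without WT wing replicate 1 the difference was −1.19 and called (adjusted p = 0.0383). These intervals leave room for changes of a size that was called in other comparisons, most of all for Hr3 and Hr39. They also understate changes of low genes such as Hr38. Its 18 reads in EcRi wings at −6 h against 4 in WT wings gave a scaled ratio of 4.67. The counting interval of that ratio was 1.54 to 19.0 and covers counting error only. Of the other genes, ftz-f1 was higher in EcRi wings at −6 h by 1.93 ± 0.37, while Blimp-1 and Eip63F-1 were lower by −1.87 ± 0.37 and −1.87 ± 0.21 and Eip75B, which binds Hr3 and blocks it, by −1.02 ± 0.19. At −30 h Eip78C was higher by 2.20 ± 0.44 and sr, a transcription factor gene of tendon cells, by 2.01 ± 0.39. At −6 h 1 of 12 other nuclear receptors was higher and 1 lower, 2 of 7 other regulators were lower, and 1 of 5 partners and targets was higher and 2 lower. The median of the 5 genes at −6 h was −0.29 and that of all genes tested 0.

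Over time, EcRi glands showed no called change in any of the 5 genes at −6 h over −30 h, where 4.4% of all genes were called. By limma voom the count was also 0, and Hr4 alone had an unadjusted p under 0.05. Hr4 stood at −0.80 ± 0.35 (adjusted p = 0.232), the libraries at −6 h lying below those at −30 h, and Hr39 at 0.79 ± 0.57 (adjusted p = 0.562). Hr3 was at 0.62 ± 0.62 (adjusted p = 0.745), Hr78 at 0.10 ± 0.27 (adjusted p = 0.962) and Hr38 at 0.01 ± 0.29 (adjusted p = 1). Blimp-1 and E23 rose by 2.33 ± 0.37 and 2.23 ± 0.55 in the same comparison. In EcRi wings 1 of 5 was called, where 3.07% of all genes were called: Hr4 rose by 5.53 ± 0.35 (adjusted p = 1.19e-06). Hr3 was at 2.26 ± 0.62 (adjusted p = 0.0581), on 265 reads against 4, a scaled ratio of 62.9 with a counting interval of 24.3 to 233. Blimp-1, E23, sr and Eip78C rose there by 5.63 ± 0.37, 2.83 ± 0.55, 2.18 ± 0.39 and 1.78 ± 0.44.

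The tests of whether the change over time differed between genotypes followed these values. In glands, EcRi minus WT, with the libraries labelled EcRi at −30 h as the start, 3 genes were called lower, where 26.7% of all genes were called. Hr4 was at −7.12 ± 0.49 (adjusted p = 2.97e-07), Hr39 at −3.02 ± 0.80 (adjusted p = 0.0111) and Hr78 at −2.22 ± 0.39 (adjusted p = 6e-04). The value of Hr39 was −4.55 without WT gland replicate 1 at −30 h and −1.59 without replicate 2, and its call was lost with only the compared groups in the fit (adjusted p = 0.0891). Without scaling Hr78 was at 0.65 and Hr39 at −0.15, neither called, and Hr4 kept its call, at −4.25. In wings, EcRi minus WT, none of the 5 was called, where 0.865% of all genes were called, and Hr4 was at 0.17 ± 0.49 with a 95% interval of −0.89 to 1.23.

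EcRi wings and the glands labelled EcRi differed in Hr4 and Hr38 at −30 h, both lower in wings, 2 of 5 where 33.2% of all genes were called. Hr4 was lower by −6.02 ± 0.35 (adjusted p = 9.66e-09) and Hr38 by −1.50 ± 0.29 (adjusted p = 0.000755). At −6 h Hr38 was lower in wings by −1.77 ± 0.29 (adjusted p = 0.000191), 1 of 5 where 32.2% of all genes were called, and Hr4 was at 0.30 ± 0.35 (adjusted p = 0.532). Hr3 stood at −1.02 ± 0.62 at −30 h and 0.62 ± 0.62 at −6 h (adjusted p = 0.201 and 0.464). Hr39 and Hr78 lay between −0.15 and −0.02 at both times. Without scaling Hr78 was called higher in wings at −30 h, at 1.38, and Hr4 and Hr3 at −6 h, at 1.07 and 1.25. The call of Hr38 at −30 h was lost without scaling, at −0.72 on RPM and −0.39 on RPKM. It was also lost with limma voom (adjusted p = 0.0738) and with a pseudocount of 4, at −0.70. The call of Hr38 at −6 h held on RPM and was lost on RPKM, at −0.86, and with a pseudocount of 4, at −0.79.

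The difference between tissues in the effect of EcR-RNAi was tested as wing minus gland. At −30 h, 2 genes were called lower, where 7.94% of all genes were called: Hr4 at −5.88 ± 0.49 (adjusted p = 8.86e-06) and Hr38 at −1.92 ± 0.42 (adjusted p = 0.0115). At −6 h, 1 was higher and 1 lower, where 21.7% of all genes were called. Hr78 was at 2.57 ± 0.39 (adjusted p = 0.000243) and Hr38 at −1.39 ± 0.42 (adjusted p = 0.0244), while Hr4 was at 1.40 ± 0.49 (adjusted p = 0.0514) and Hr39 at 1.17 ± 0.80 (adjusted p = 0.34). Without scaling the test at −6 h called Hr38 alone, with Hr78 at 0.37, and Hr4 and Hr39 turned to −0.81 and −1.03. At −30 h Hr39 stood at −1.43 ± 0.80 (adjusted p = 0.278), and at −2.83 and called without WT gland replicate 1. The calls of Hr38 rest on few reads. That at −30 h was lost without replicate 2 of the EcRi glands or wings, at −1.52 and −1.73. That at −6 h was lost without any 1 of 6 libraries, at −0.89 to −1.40. The calls at −30 and −6 h held under 8 and 9 of 13 other settings. Limma voom lost both, at −5.19 (adjusted p = 0.0629) and −1.38 (adjusted p = 0.671). Both were also lost with a pseudocount of 4, at −0.83 and −0.66, and on RPKM, at −0.72 and −0.87. That at −30 h was lost with array weights (adjusted p = 0.244) and only the compared groups (adjusted p = 0.111). That at −6 h was lost with a pseudocount of 0.25, at −1.97 (adjusted p = 0.118).

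The 5 genes did not share a single pattern. Across the 10 group means of log2(scaled RPM + 1), Pearson's r was 0.85 between Hr3 and Hr4, 0.66 between Hr39 and Hr78, 0.65 between Hr4 and Hr39 and 0.47 between Hr3 and Hr39. The other 6 pairs lay between −0.29 and 0.36. These are descriptions over 10 points that share libraries and scaling factors. Among 8035 genes with at least 5 scaled RPM in some group, the closest to Hr3 were sick (r = 0.95), how (0.93) and Pgant2 (0.92). Those closest to Hr4 were scyl (0.91), l(2)k05911 (0.90) and spirit (0.89), and those closest to Hr38 were ntc (0.99), Prx2540-2 (0.97) and gas (0.97). For Hr39 they were CG11686 (0.96), DIP2 (0.95) and CG5721 (0.93), and for Hr78 CG34348 (0.99), FBgn0287615 (0.98) and CG44006 (0.98).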

How the data were processed

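RNA was sequenced from pooled wings and salivary glands in 20 libraries made with the Tecan Universal RNA-Seq kit for Drosophila, per the labels' protocols. STAR 2.7.3a, SAMtools 1.9 and DESeq2 are named with genome dm6, per the submitters' processing notes; the counting tool is not given in the sources used here. The deposited matrix holds RPKM, which the values show to be per gene span with introns and per library size: reads recovered from it were whole, within 0.1 of a read, for all 65384 low values tested. Of its 17606 genes, 4 have no values. The authors' deposited tables of comparisons give a mean signal (size-factor scaled counts), a log2 fold change with its standard error and p-values, per the file headers. They put the earlier time over the later and WT over EcRi, and were turned round here.

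Recovered reads were scaled by TMM (trims of 30% and 5%), expressed as RPM, and transformed as log2(RPM + 1). A filter kept 10175 genes that reached, in 2 libraries, the level of 10 reads at median depth, with 15 reads in all. limma 3.58.1 in R 4.3.3 (trend and robust options) fitted 1 mean per group over the 20 libraries, and p-values were adjusted by the Benjamini-Hochberg method over all genes; every adjusted p in the text is of this kind unless the authors' table is named. A total of 17 comparisons between groups and 6 differences of changes were tested. A gene was called at an adjusted p under 0.05 and a fold change of at least 2. No count model was used. That choice was made beforehand because the deposited unit is RPKM, and it was kept although whole reads were recovered. The fit was tested on simulated data. Counting intervals of ratios are exact, at 95%, and cover counting error only; the limit for 0 reads is 3 reads. Exon lengths and overlaps come from the BDGP6 annotation, which shares the dm6 coordinates; the annotated genes were matched by symbol or identifier. Python 3.11.15 with pandas 2.3.3, NumPy 2.4.6 and Matplotlib 3.10.9 was used for the rest.

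The 5 genes, the pathway lists and the marker lists were chosen with earlier results of these data known. The text names the 5 genes throughout and, from the pathway lists, up to 4 per comparison with the largest called changes and at least 5 scaled RPM; Eip74EF and ftz-f1 in EcRi over WT glands at −30 and −6 h lie beyond the 4 and were named after their values were seen; genes of like pattern are the 3 with the highest Pearson's r among genes with at least 5 scaled RPM in a group. Marker lists were summed per library. Glue markers reached 2584910 and 3676180 scaled RPM in WT glands at −6 h. Muscle and tracheal markers were 181 and 88.7, and 173 and 205, in glands labelled EcRi at −30 h, against 41.9 and 59.0, and 99.6 and 85.0, in WT glands. Blood markers stayed at or under 13.5 everywhere, and neuron markers at 38.0 to 77.5 in wings and 7.15 to 25.4 in glands. Other regulators of the cascade (8 listed) were tested for 7 genes, other nuclear receptors (16 listed) for 12, and partners and targets (6 listed) for 5.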

Additional observations from a re-analysis of the deposited data

Results flagged for a closer look

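These are the 13 differences of changes that passed the test of the difference itself, each as log2 and with its standard error in the report. Hr4 differed in 3 of them. Its change of −30 to −6 h in glands was −7.12 in EcRi minus WT, from −0.80 in EcRi glands against 6.32 in WT glands, and the effect of EcR-RNAi at −30 h in wing minus gland was −5.88. Its WT change of −6 to +6 h in wing minus gland was 2.96, from 1.71 in wings against −1.25 in glands.

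Hr38 differed in the effect of EcR-RNAi in wing minus gland, at −1.92 at −30 h and −1.39 at −6 h, and in the WT change of −6 to +6 h in wing minus gland, at −4.03. In each case the wings held at most 21 reads per library.

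Hr39 differed in the gland change of −30 to −6 h in EcRi minus WT, at −3.02, in the WT change over the same hours in wing minus gland, at −2.71, and in the WT change of −6 to +6 h in wing minus gland, at 2.89. Its replicates in WT glands at −30 h were 63.9 and 7.95 scaled RPM, and they enter the first pair of values.

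Hr78 differed in the gland change of −30 to −6 h in EcRi minus WT, at −2.22, in the WT change over the same hours in wing minus gland, at −1.92, in the effect of EcR-RNAi at −6 h in wing minus gland, at 2.57, and in the WT change of −6 to +6 h in wing minus gland, at 3.07. All 4 involve WT glands at −6 h, and the last held without scaling, at 1.70.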

How the results depend on the processing

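Fold changes of the studied receptors and the numbers of genes called were recomputed under 13 other settings and without each library in turn. Of these settings, RPM without scaling was added after seeing the data. Changes of EcR and of the pathway genes, their list counts and medians, and the correlations between genes were not recomputed. Of the log2 fold changes 3462 kept direction and call, 98 gained a call, 90 lost it, 117 moved, which includes changes of sign in values never called, and 20 turned sign with a call before or after. These 20 turned on RPKM and RPM without scaling: Hr78 for WT glands at −6 h over −30 h (−0.029 and −0.031), for WT wings over WT glands at −6 h (both 0.37), for EcRi wings over EcRi glands at −30 h (1.40 and 1.38), for the gland change in EcRi minus WT (0.66 and 0.65) and for the WT change to −6 h in wing minus gland (both 0.28); Hr4 for WT wings over WT glands at −6 h (1.84 and 1.88), EcRi over WT glands at −6 h (0.43 and 0.45) and the WT change to −6 h in wing minus gland (1.42 and 1.33); Hr39 for WT wings over WT glands at −6 h (1.63 and 1.65) and EcRi over WT glands at −6 h (0.55 and 0.56). The scaling itself, which differs most for WT glands at −6 h, is all that separates the RPM values.

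The number of the 5 genes called moved as follows. For EcRi wings over time it was 2 with a pseudocount of 0.25, only the compared groups, voom, array weights, RPKM and RPM, against 1. With the replicate block it was 2 as well, Hr3 then passing at 2.26 (adjusted p = 0.037); Hr3 also passed for WT glands at −6 h over −30 h (1.58, adjusted p = 0.0333), and the block moved no other count of the 5. Same-numbered libraries leaned the same way in most pairs of groups: their deviations correlated above 0.1 in 30 of 45 pairs (median 0.15, lowest −0.04, highest 0.43). Since not every pair did and the labels tie the numbers to no shared batch, the fit without the block was kept. A pseudocount of 4 gave 2 for WT wings at +6 h over −6 h, 1 for EcRi over WT glands at −30 h, 1 and 0 for EcRi wings over glands at −30 and −6 h, and 1 for the effect of EcR-RNAi at −30 h in wing minus gland. That last count was also 1 with only the compared groups, voom, array weights and RPKM. At −6 h it was 1 with a pseudocount of 0.25, 4 with only the compared groups, 0 on RPKM and 1 on RPM. EcRi over WT glands at −30 h gave 1, and the WT change to −6 h in wing minus gland gave 1, with only the compared groups and with array weights. WT wings gave 2 at +6 h over −6 h with voom and array weights, and 4 at +6 h over −30 h with voom. RPKM and RPM each gave 1 for WT glands at −6 h over −30 h, 1 for EcRi over WT glands at −6 h, 1 for the gland change in EcRi minus WT, 1 for WT wings over WT glands at −30 h (voom too) and 5 at +6 h, and RPM gave 3 for EcRi wings over glands at −6 h.

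Without each library in turn the count ran from 1 to 3 for WT wings at −6 h over −30 h, 1 to 2 at +6 h over −6 h, 0 to 1 for WT wings over WT glands at −30 h and 1 to 3 at −6 h, 0 to 1 for EcRi over WT wings at −30 h, 1 to 2 for EcRi wings over time, 1 to 3 for the effect of EcR-RNAi in wing minus gland at −30 h and 1 to 4 at −6 h, and 1 to 3 for the WT change to −6 h in wing minus gland. The cause was not tested. Over all genes, EcRi over WT glands at −30 h gave 1384 calls, 92 to 2538 under other settings, 596 without EcRi gland replicate 2 and 3917 without WT gland replicate 1 at −30 h, and 75.1% of calls were higher, against 18.1% on RPM. The other comparisons whose number of genes called moved by over 1.5 times, with their lowest and highest number under all alternatives, were: WT gland, −6 h over −30 h, 3537 (1616 to 5340); WT gland, +6 h over −6 h, 3052 (1978 to 4182); WT gland, +6 h over −30 h, 4642 (3012 to 5837); WT wing, −6 h over −30 h, 539 (332 to 866); WT wing over WT gland, −30 h, 3148 (1105 to 4762); WT wing over WT gland, −6 h, 4523 (3619 to 7512); EcRi over WT, gland −6 h, 2744 (1974 to 6604); EcRi over WT, wing −30 h, 224 (93 to 514); EcRi over WT, wing −6 h, 181 (85 to 369); EcRi gland, −6 h over −30 h, 448 (222 to 872); EcRi wing, −6 h over −30 h, 312 (153 to 569); EcRi wing over EcRi gland, −30 h, 3374 (2619 to 5562); gland change −30 to −6 h, EcRi minus WT, 2712 (1268 to 5525); wing change −30 to −6 h, EcRi minus WT, 88 (11 to 378); EcRi effect at −30 h, wing minus gland, 808 (92 to 3989); EcRi effect at −6 h, wing minus gland, 2209 (1263 to 5736); WT change −30 to −6 h, wing minus gland, 2909 (1481 to 5185); WT change −6 to +6 h, wing minus gland, 2750 (1433 to 3619). Depth limits Hr38 and Hr3 most, since groups of at most 4 reads enter their changes.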

Other observations

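The authors' deposited tables gave a fold change for the 5 genes in 15 of the comparisons between groups, 75 values in all. In 25 both the authors' adjusted p and limma called the gene, with the same sign in all 25. The authors' deposited table alone called 7, among them Hr3 in EcRi wings at −6 h over −30 h at 4.87 (adjusted p = 2.09e-05), Hr3 in WT glands at −6 h over −30 h at 5.14 (adjusted p = 0.000139) and Hr3 in EcRi-labelled over WT glands at −30 h at 2.70 (adjusted p = 0.00733). The authors' deposited table also called Hr38 lower in WT wings at −6 h and +6 h over −30 h, at −2.41 and −3.04. limma alone called Hr4 in WT glands at +6 h over −6 h and Hr39 in WT wings over WT glands at +6 h, which the authors' deposited table gave as −0.84 (adjusted p = 0.051) and 1.04 (adjusted p = 0.0826).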
